A study of Homo sapiens with 12 samples.

Results

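HOTTIP is a long non-coding RNA gene at the 5' end of the HOXA cluster on chromosome 7, and it is described here together with HOXA13, HOXA11, HOXA10, HOXA9, HOXA7 and HOXA5. The 7 genes were chosen by earlier results of these data, in which HOTTIP was lower after G-quadruplex oligonucleotides in a single cell line, so the difference between oligonucleotide classes within each line is given for HOTTIP as a description with no test. Members were the probe sets whose annotation names 1 of these genes and no other. Of the 54675 probe sets of the array, 54613 of which are no array controls, 3 met this rule. All 3 name HOTTIP. The other 6 genes, HOXA13, HOXA11, HOXA10, HOXA9, HOXA7 and HOXA5, are named by 0 probe sets in the annotation used here and were not analysed here. The neighbourhood was therefore read through other named transcripts of the cluster.

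The samples were 3 human cancer cell lines, PC-3 (prostate), HBC4 (breast) and MKN74 (gastric), each with 4 treatments and 1 Affymetrix array per line and treatment, 12 arrays in all. In each well 300000 cells were reverse transfected with Lipofectamine RNAiMAX, grown in 3-dimensional culture on low-adhesion plates and harvested after 72 h. The control class comprised the transfection reagent alone and the RNA oligonucleotide (uuaccc)4, and the G4 class comprised the RNA oligonucleotide (uuaggg)4 and the guanine-rich aptamer AS1411, with about 100 pmol of oligonucleotide per well. All groups, the controls included, received the transfection reagent, and the labels name no further cultures. A p-value between lines, or for G4 against control within a line, therefore measures the spread between arrays of different treatments. One for treatments or classes over the 3 lines measures how far their differences vary between lines.

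A G-quadruplex (G4) is a 4-stranded fold that guanine-rich DNA or RNA can form, in which guanines from separate runs stack in flat layers. HOX genes encode homeodomain transcription factors that specify position along the body axis, and each cluster is switched on in an order that follows the position of its genes on the chromosome. HOTTIP is transcribed away from HOXA13 and is known to bind the adaptor WDR5, which brings MLL histone H3K4 methyltransferases to the 5' HOXA genes. In prostate cancer HOXA13 and HOTTIP have been described as part of a gastrointestinal transcription programme.

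The HOTTIP start window (RefSeq, GRCh38.p14, chr7:27200171-27200470, plus strand, from 250 bases before the start to 50 bases after it) is shown because it holds a G4-type pattern. The pattern searched was 4 runs of GGG separated by 1 to 7 bases of any kind, on either strand, and capitals mark its matches. HOTTIP held 2 matches, both on the strand opposite to the gene, so they read as runs of CCC in the printed strand. The GC content of the window was 78.0%.
HOTTIP: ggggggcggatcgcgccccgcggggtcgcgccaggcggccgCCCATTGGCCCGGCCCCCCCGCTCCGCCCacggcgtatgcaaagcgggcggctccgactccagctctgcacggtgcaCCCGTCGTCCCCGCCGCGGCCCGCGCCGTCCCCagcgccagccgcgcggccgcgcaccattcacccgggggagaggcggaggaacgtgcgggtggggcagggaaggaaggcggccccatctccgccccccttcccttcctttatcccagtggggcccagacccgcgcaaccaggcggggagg
The window of HOXA11-AS (chr7:27185158-27185457, plus strand), the cluster transcript with the largest PC-3 excess below, is shown for comparison and held 0 matches.
HOXA11-AS: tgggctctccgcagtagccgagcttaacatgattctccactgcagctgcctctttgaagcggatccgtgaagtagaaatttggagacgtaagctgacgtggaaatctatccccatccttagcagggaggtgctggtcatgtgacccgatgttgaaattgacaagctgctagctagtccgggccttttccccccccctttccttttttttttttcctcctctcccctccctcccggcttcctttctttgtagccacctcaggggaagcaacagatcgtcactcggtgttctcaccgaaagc

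The start window of HOXA13 (chr7:27200042-27200341, minus strand) overlaps that of HOTTIP by 171 bases, with the starts 330 bases apart and pointing away from each other, and its 2 matches are the same stretches read on the other strand. The windows of HOXA11, HOXA10, HOXA9, HOXA7, HOXA2, EVX1, HOXA-AS2 and HOXA-AS3 held 0 matches. Of 35116 RefSeq windows of 300 bases, 25.0% held the pattern, so windows with it are common. The telomere repeat TTAGGG, searched on both strands, was in 9.05% of windows and, among these cluster windows, in that of HOXA-AS3. A match describes letters only, and no match says nothing about folding.

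HOTTIP gave its highest values in PC-3 on all 3 probe sets, and on 1 of them it was much lower on the PC-3 arrays with a G4 oligonucleotide. Values are log2 intensities centred on each probe set's median over the 12 arrays, so 0 is that median and no absolute level or detection can be read. Probe set 244553_at read 2.63 with reagent alone and 2.88 with (uuaccc)4 in PC-3. With (uuaggg)4 it read 0.46, and with AS1411 0.38. The PC-3 control arrays thus stood far above every other array, and the PC-3 G4 arrays were the next highest. In HBC4 the values in the same order were -0.12, -0.13, -0.44 and -0.34. In MKN74 they were 0.23, 0.05, -0.17 and -0.05.

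For 244553_at the G4 class mean was lower than the control mean by a log2 difference of -2.34 in PC-3 (0.42 ± 0.06 against 2.75 ± 0.18, SD of 2 arrays per class, 5.05-fold lower), and both G4 arrays lay below both controls. Quantile normalization gave -1.81. HBC4 had a difference of -0.26 and MKN74 one of -0.25, again with both G4 arrays below both controls. In direction the probe set was therefore alike in the 3 lines, and PC-3 stood out by the size of the difference. Over the array, 21.8% of probe sets had both PC-3 G4 arrays below both controls and 2.98% had this in all 3 lines. Since HOTTIP was chosen on this contrast, nothing is read from the comparison with these shares. The parts of this class difference were of like size in PC-3: (uuaggg)4 minus (uuaccc)4 was -2.42, and AS1411 minus reagent alone was -2.25. Reagent alone holds no oligonucleotide, so the latter difference also includes the presence of any DNA oligonucleotide. In bulk RNA, fewer cells with the transcript and less of it per cell cannot be told apart.

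The other HOTTIP probe sets, both annotated to 1 transcript record that is not that of 244553_at, did not share the low PC-3 values. Probe set 1564070_s_at read 0.81, 0.63, 0.06 and 1.22 in PC-3 for reagent alone, (uuaccc)4, (uuaggg)4 and AS1411. Its 2 G4 arrays were thus the lowest and the highest of the 4, and the class difference was -0.08. In HBC4 it read -0.04, -0.09, -0.16 and -0.14, and in MKN74 -0.18, 0.04, -0.14 and 0.28.

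Probe set 1564069_at read 0.19, 0.09, 0.27 and 0.28 in PC-3, -0.32, -0.40, -0.47 and -0.19 in HBC4, and 0.03, -0.22, -0.03 and 0.04 in MKN74. Its PC-3 G4 arrays lay above both controls, by 0.13 in class means. Over the 12 arrays it had a Pearson r of 0.54 with 244553_at, and 1564070_s_at had one of 0.63. Once each line's mean was subtracted these became -0.40 and 0.06. The shared part of the 3 probe sets is thus the line difference, and the low G4 values rest on 244553_at alone. All points come from the same 12 arrays.

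**Figure D1:**
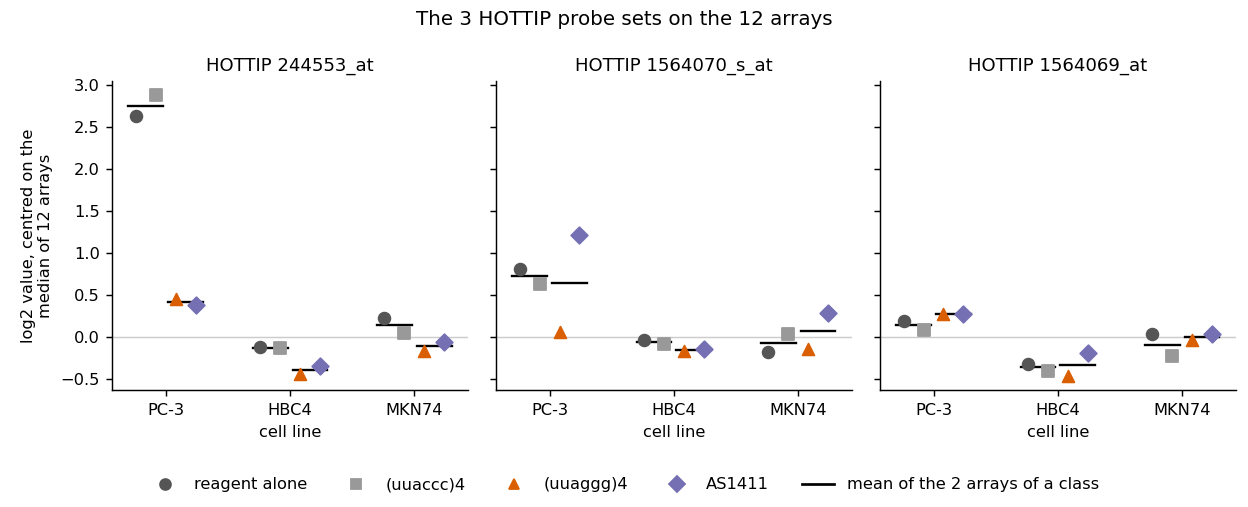
Log2 values (y axis, centred on the median of 12 arrays) of the 3 HOTTIP probe sets by cell line (x axis); each point is 1 array, shape and colour give the treatment, and bars are the means of the 2 arrays of a class. On 244553_at the PC-3 controls sit at 2.63 and 2.88 and the PC-3 G4 arrays at 0.46 and 0.38; the other probe sets show no such gap.

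The line difference was taken over both oligonucleotide classes. The PC-3 control values enter both this difference and the contrast on which HOTTIP was chosen. Whether the other lines had room for a drop of this size on 244553_at cannot be read from centred values. High PC-3 control values enlarge both contrasts. The tests of 244553_at between PC-3 and the other lines are therefore a description and no independent support. All 3 HOTTIP probe sets were higher in PC-3 than in HBC4 (limma with Benjamini-Hochberg adjustment over all 54613 probe sets), where 23.1% of the array was higher and 26% lower. The line means of 244553_at were 1.59 ± 1.35 for PC-3, -0.26 ± 0.16 for HBC4 and 0.02 ± 0.17 for MKN74 (SD, n = 4 arrays), the wide PC-3 spread being that between its classes. PC-3 exceeded HBC4 by 1.85 (SE 0.08, adjusted p = 2.61e-09, 3.60-fold). This difference was 2.88 on the 6 control arrays alone, of which the PC-3 arrays enter the chosen contrast. It was 1.06 with the 3 probe sets averaged (adjusted p = 5.13e-07). For 1564070_s_at the excess was 0.79 (SE 0.20, adjusted p = 0.00601), and for 1564069_at 0.55 (SE 0.09, adjusted p = 1.97e-04).

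All 3 probe sets were also higher in PC-3 than in MKN74, where 23.3% of the array was higher and 31.1% lower. The excess was 1.57 for 244553_at (SE 0.08, adjusted p = 8.55e-09), 0.68 for 1564070_s_at (SE 0.20, adjusted p = 0.0123) and 0.25 for 1564069_at (SE 0.09, adjusted p = 0.0273). For 244553_at it was 2.61 on the control arrays alone, and the average of the 3 probe sets gave 0.84. The smaller differences were less stable. On the 6 control arrays alone 1564069_at gave 0.24 (adjusted p = 0.163), and it lost its call without any of 5 single arrays. These were the PC-3 arrays of reagent alone, (uuaggg)4 and AS1411 and the MKN74 arrays of (uuaccc)4 and (uuaggg)4. Without the MKN74 array of (uuaggg)4 the 1564070_s_at excess was 0.58 (adjusted p = 0.0505), which left 1 of 3 probe sets called.

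MKN74 ranked above HBC4 on 2 of 3 probe sets, in a comparison with 24.7% of the array lower and 20.5% higher in HBC4. HBC4 minus MKN74 was -0.28 for 244553_at (adjusted p = 0.0152) and -0.30 for 1564069_at (adjusted p = 0.0141). It was -0.11 for 1564070_s_at (adjusted p = 0.719, 95% interval -0.54 to 0.33), so these neighbours in the order did not differ beyond their spread there. On control arrays alone the 244553_at difference had an adjusted p of 0.141 and that of 1564069_at 0.138. Both calls were also lost without the HBC4 array of (uuaggg)4 or the MKN74 array of reagent alone, and that of 244553_at without the MKN74 array of AS1411, at adjusted p from 0.0521 to 0.0620. With a model of treatment and line in place of a class effect per line, that of 244553_at had an adjusted p of 0.602.

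Within classes, no HOTTIP probe set passed the threshold between treatments. For (uuaccc)4 minus reagent alone over the 3 lines, 244553_at gave 0.02 (95% interval -0.89 to 0.93), 1564070_s_at 0.00 (-0.38 to 0.37) and 1564069_at -0.15 (-0.35 to 0.05). For AS1411 minus (uuaggg)4, which differ in kind of nucleic acid and in sequence, the values were 0.04 (-0.87 to 0.96), 0.53 (0.16 to 0.91, adjusted p = 0.986) and 0.12 (-0.08 to 0.32). The wide intervals of 244553_at come from a model with 1 class effect for all lines, which leaves the large PC-3 difference in its residual. Limma called 0% of the array in each comparison, with 1703 probe sets at an unadjusted p under 0.05 in the former and 2633 in the latter. An interval that spans 0 does not show that the treatments act alike.

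The 244553_at difference was also set beside other transcripts that PC-3 controls had in excess, as a description. Of 1106 probe sets at least 2 log2 higher in the PC-3 control mean than in the control means of both other lines, the median G4 minus control difference in PC-3 was -0.10, and the range from the 5th to the 95th percentile was -0.70 to 0.47. HOTTIP 244553_at had the lowest value of the set, and 21 of the 1106 (1.90%) were at -1 or below. The next were CCDC88A at -1.70, RIGI at -1.59, ARL14 at -1.53, SMIM31 at -1.43 and THEMIS2 at -1.40. RIGI encodes a cytosolic sensor of viral RNA and CCDC88A an actin-binding protein. Over all 54613 probe sets 244553_at ranked 49th among the lowest PC-3 differences. The set was picked on control values that enter the difference, so a lean below 0 is in part built in. HOTTIP itself was chosen on this difference, so its extreme ranks follow from that choice and nothing is read from them.

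**Figure D2:**
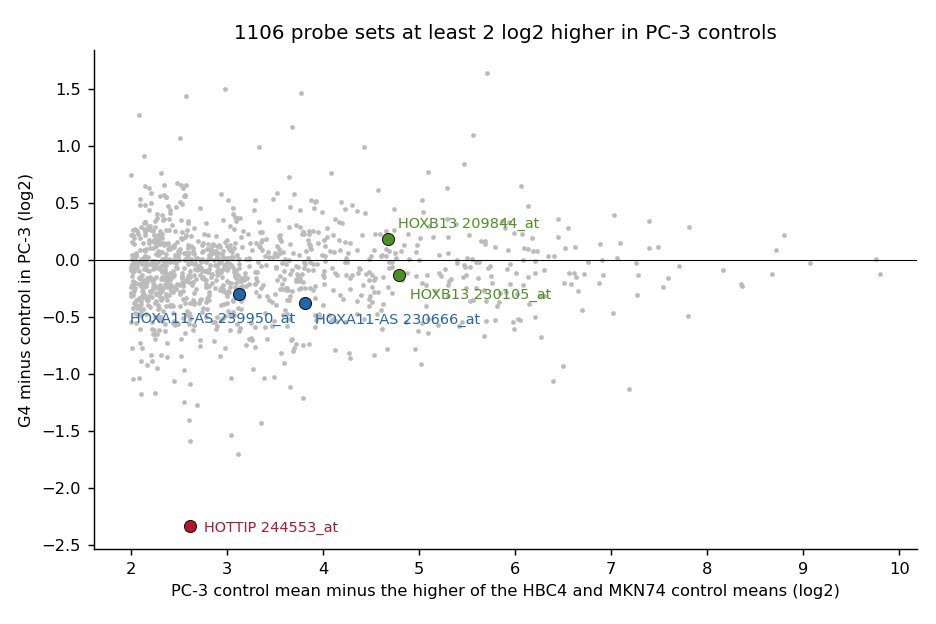
Each point is 1 of 1106 probe sets at least 2 log2 higher in PC-3 controls than in the controls of both other lines; the x axis is that excess and the y axis the G4 minus control difference in PC-3 (both log2). HOTTIP, which was chosen on this difference, lies lowest at -2.34 on 244553_at. The HOXA11-AS probe sets lie at -0.37 and -0.29, and those of HOXB13 at 0.19 and -0.13.

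HOXA11-AS, an antisense transcript of HOXA11 and the nearest named transcript on the HOXA13 side of HOTTIP, was also high in PC-3 but kept most of that excess on the G4 arrays. Probe set 230666_at read 3.52, 3.60, 3.03 and 3.34 in PC-3 for reagent alone, (uuaccc)4, (uuaggg)4 and AS1411. In HBC4 it read -0.16, -0.34, 0.02 and 0.23, and in MKN74 -0.58, -0.59, -0.55 and -0.02. Each PC-3 array was thus far above every array of the other lines. PC-3 exceeded HBC4 by 3.44 (SE 0.12, adjusted p = 3.25e-10, 10.8-fold) and MKN74 by 3.81 (SE 0.12, adjusted p = 1.07e-10, 14.0-fold).

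Probe set 239950_at of HOXA11-AS gave the same order, with 3.19, 2.99, 2.91 and 2.69 in PC-3, -0.09, 0.03, -0.03 and 0.06 in HBC4, and -0.32, -0.26, -0.31 and -0.74 in MKN74. PC-3 exceeded HBC4 by 2.95 (adjusted p = 3.27e-10) and MKN74 by 3.35 (adjusted p = 8.70e-11). On both HOXA11-AS probe sets the PC-3 G4 arrays lay below the PC-3 controls, but by far less than on 244553_at and without passing the test. G4 minus control was -0.37 for 230666_at (adjusted p = 0.377, 95% interval -0.74 to -0.00) and -0.29 for 239950_at (adjusted p = 0.423, -0.61 to 0.03). Reads from HOXA11 and its antisense partner were not compared, since HOXA11 was not analysed here.

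Among the 12 listed genes of the rest of the cluster, 6 were named on the array, by 15 probe sets, and none of the 15 passed the test of G4 against control in PC-3, where 1.21% of all probe sets did. The list's median difference was 0.06 against 0.02 over the array, and values ran from -0.37 to 0.33. Both G4 arrays lay below both controls for 3 of the 15, against 21.8% of the array, and above them for 5. The array's share for the latter was not counted, so no lean of the cluster is read from these counts. The smallest adjusted p was that of SKAP2 217035_at (0.33, adjusted p = 0.209), a gene that encodes a Src-kinase adaptor. EVX1, the homeobox gene beyond HOTTIP on the opposite side, gave 0.09 and -0.08 on its 2 probe sets.

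Line differences in the rest of the cluster were led by HOXA11-AS. PC-3 was higher than HBC4 for 3 of the 15 probe sets (23.1% of the array), the 2 of HOXA11-AS and SKAP2 216899_s_at (0.48, adjusted p = 3.80e-04), and lower for 0 (26% of the array). PC-3 was higher than MKN74 for 4 (23.3% of the array), again including both of HOXA11-AS, and lower for 0 (31.1%). The others were HOXA-AS2, an antisense transcript near HOXA3, at 242528_at (0.44, adjusted p = 0.00574) and 230080_at (0.19, adjusted p = 0.0459). HOXA2 and HOXA-AS3 did not pass in either comparison. HBC4 was higher than MKN74 for 3 of the 15 (20.5% of the array), both of HOXA11-AS (0.37, adjusted p = 0.0239 for 230666_at, and 0.40, adjusted p = 0.00681 for 239950_at) and HOXA-AS2 242528_at (0.34, adjusted p = 0.0265), and lower for 3, all of SKAP2 (24.7%). The counts of higher probe sets are thus near the array's shares. The 230666_at call was lost without the HBC4 array of reagent alone or AS1411 or the MKN74 array of reagent alone, (uuaccc)4 or (uuaggg)4, at adjusted p from 0.0532 to 0.0910, and under the model of treatment and line (adjusted p = 0.0590), and that of 239950_at on control arrays alone (adjusted p = 0.128). The line means of HOXA11-AS thus ran from PC-3 through HBC4 to MKN74, with the last step not stable, whereas 244553_at had MKN74 above HBC4. Over the 3 lines the G4 contrast called 0 of the 15 probe sets (1.57% of the array), and the test for unequal class effects between lines called 0 (0.487% of the array).

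**Figure D3:**
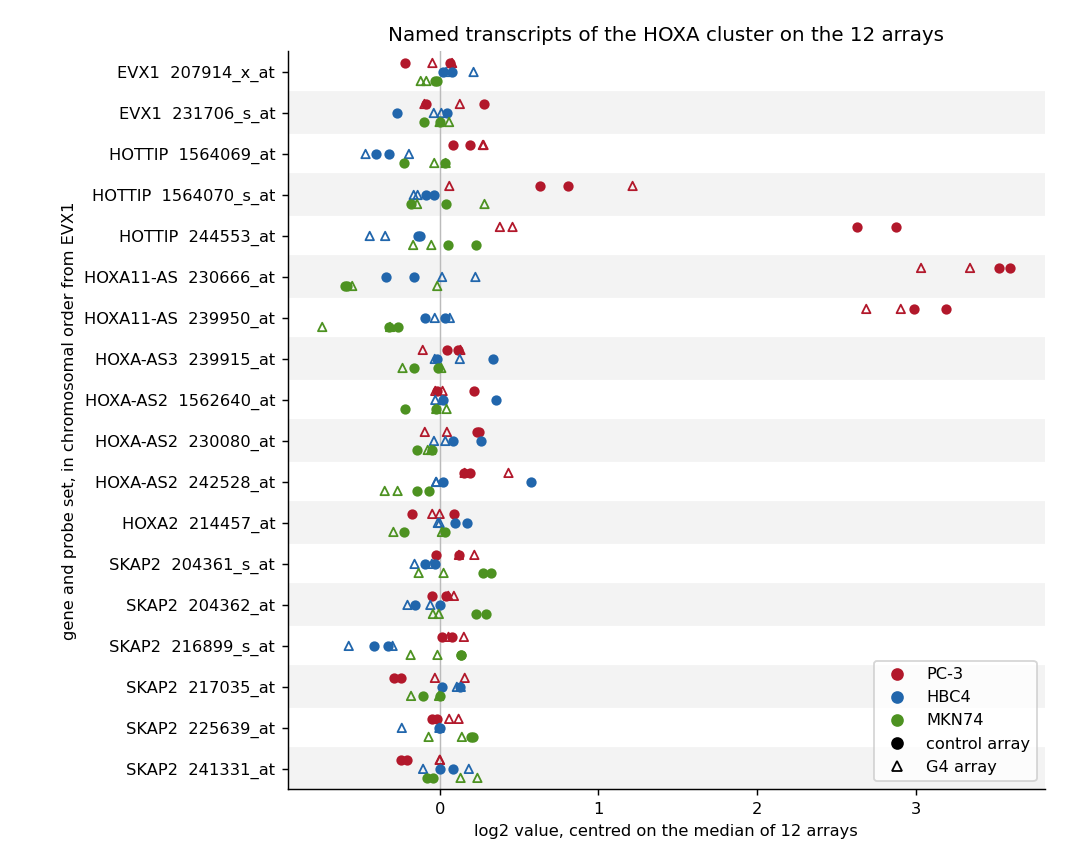
Log2 values (x axis, centred on the median of 12 arrays) of the named probe sets of the HOXA cluster in chromosomal order (y axis); colour gives the cell line, filled circles are control arrays and open triangles G4 arrays. PC-3 separates widely on HOXA11-AS and narrowly on HOTTIP 244553_at and 1564069_at, but overlaps MKN74 on HOTTIP 1564070_s_at. The PC-3 control and G4 arrays separate widely on HOTTIP 244553_at.

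The other HOX clusters were compared between lines in the same way. Of 37 listed genes 34 were named, by 57 probe sets, of which 9 were higher and 12 lower in PC-3 than in HBC4 (23.1% and 26% of the array), and 8 higher and 13 lower than in MKN74 (23.3% and 31.1%). None of these counts is above the array's share. HOXB13, a 5' homeobox gene of prostate and hindgut, had line means of 4.76 ± 0.13 for PC-3, -0.09 ± 0.19 for HBC4 and -0.20 ± 0.32 for MKN74 on 209844_at (SD, n = 4), an excess of 4.86 over HBC4 (adjusted p = 5.20e-11). On 230105_at the excess was 4.48 (adjusted p = 4.05e-12). HOXB3 228904_at was higher in PC-3 than in HBC4 by 2.39 (adjusted p = 6.02e-09), and HOXD-AS2 229493_at higher than in MKN74 by 1.21 (adjusted p = 8.90e-08).

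HOXB7, which encodes a trunk-level homeodomain factor, was lowest in PC-3 on its 3 probe sets. On 204779_s_at its difference was -3.89 from HBC4 (adjusted p = 3.24e-11) and -5.20 from MKN74 (adjusted p = 2.50e-12). Of the probe sets higher in HBC4 than in MKN74, the leading ones were those of the HOXC cluster named next. HOXC10 exceeded MKN74 by 3.57 (adjusted p = 3.00e-11) and HOTAIR, the HOXC non-coding RNA known to bind Polycomb complex 2, by 3.04 (adjusted p = 5.08e-09). HOXC4 did so by 1.84 (adjusted p = 8.52e-09). HBC4 was higher than MKN74 for 11 of the 57 probe sets and lower for 10 (20.5% and 24.7% of the array), again not above those shares. HOTAIR, set beside HOTTIP as the other well-known HOX non-coding RNA, was thus high in another line, and its G4 minus control difference was -0.07 in PC-3 (adjusted p = 0.921).

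**Figure D4:**
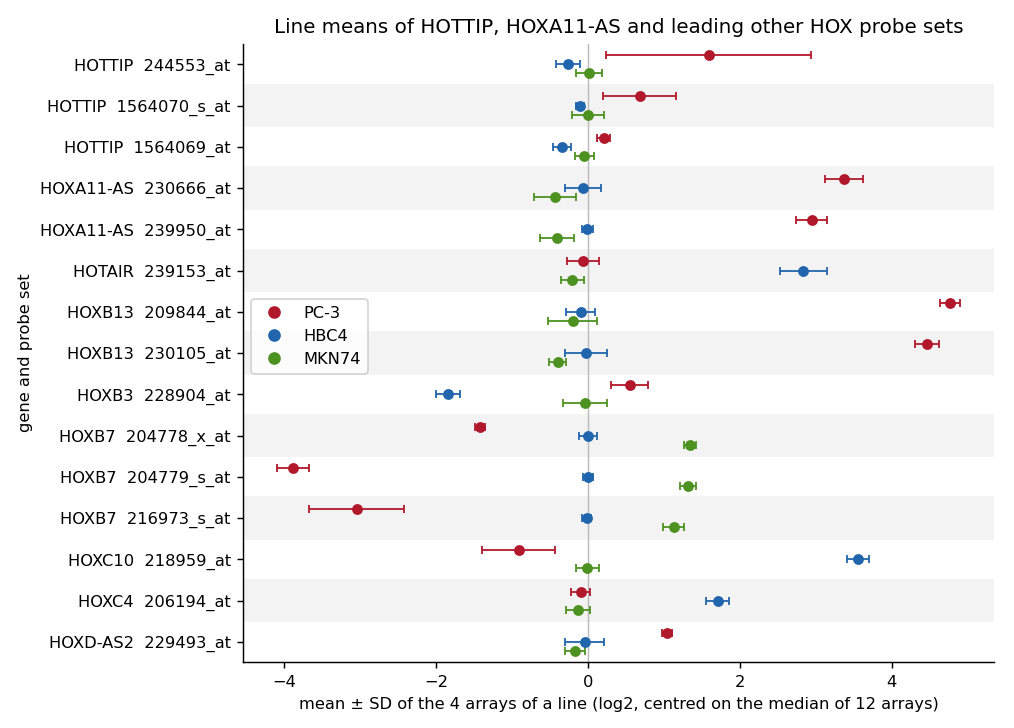
Line means of log2 values (x axis, centred on the median of 12 arrays) with SD bars over the 4 arrays of a line, for HOTTIP, HOXA11-AS and the leading probe sets of the other HOX clusters (y axis). HOXA11-AS and HOXB13 are high in PC-3, HOXC10, HOTAIR and HOXC4 in HBC4, and HOXB7 is lowest in PC-3.

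Of the 57 probe sets of the other HOX clusters, 1 passed the test of G4 against control in PC-3, and it names HOXC10, a 5' HOXC homeobox gene. Its PC-3 values were -0.59 with reagent alone, -0.43 with (uuaccc)4, -1.38 with (uuaggg)4 and -1.26 with AS1411. It fell by 0.81 on the log2 scale (SE 0.13, adjusted p = 0.0118), with both G4 arrays below both controls. Without any single PC-3 array the call was lost, at adjusted p from 0.0570 to 0.114. HBC4, where HOXC10 was highest, had 0.17 and MKN74 -0.12. The test for unequal effects between lines had an adjusted p of 0.0859.

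The regulators listed with HOTTIP are read against the 1.21% of the array called in PC-3 and the 1.57% called over the 3 lines. All 15 genes of the WDR5/MLL group were named, by 46 probe sets, and 0 passed in PC-3 (median -0.04, smallest adjusted p = 0.0636 for the H3K4 methyltransferase KMT2D). WDR5 itself gave 0.18 (adjusted p = 0.445) and -0.16 (adjusted p = 0.759) on its 2 probe sets in PC-3. KMT2A, which encodes MLL1, had no called probe set in PC-3, and its smallest adjusted p over the 3 lines was 0.0692 (-0.38, 212079_s_at). KMT2C 232940_s_at, another MLL family methyltransferase, fell over the 3 lines by 0.44 (SE 0.09, adjusted p = 0.0388). The PC-3 difference was -0.56, that of HBC4 -0.45 and that of MKN74 -0.30; 5 other KMT2C probe sets did not pass.

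Of the Polycomb group and H3K27 demethylases 14 of 18 genes were named, by 42 probe sets, with 0 past the test in PC-3 (median -0.04, smallest adjusted p = 0.0683 for JARID2) and 2 over the 3 lines. Both name PHF19, a Polycomb complex 2 subunit that reads H3K36 methylation. PHF19 rose by 0.45 on 227211_at (SE 0.10, adjusted p = 0.0406) and by 0.50 on 227212_s_at (SE 0.11, adjusted p = 0.0438), while a further probe set, 225533_at, gave 0.25 (adjusted p = 0.226). Leaving out any 1 line ended the calls of PHF19 and KMT2C. Without PC-3, HBC4 or MKN74 the adjusted p was 0.183, 0.301 or 0.0633 for 227211_at and 0.283, 0.165 or 0.0915 for KMT2C. Most single arrays left out did the same, as did dropping the line as a block (adjusted p = 1).

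TALE homeodomain cofactors, which bind DNA with HOX proteins, had 8 of 9 genes named by 20 probe sets and 0 past the test in PC-3 or over the 3 lines (PC-3 median 0.00, smallest adjusted p = 0.353 for PBX2). MEIS1 204069_at gave -0.05 in PC-3 and -0.29 over the 3 lines (adjusted p = 0.158). MEIS1 was higher in MKN74 than in PC-3 on both of its probe sets. Among caudal and retinoid regulators all 10 genes were named, by 24 probe sets (PC-3 median 0.09), and 1 passed.

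RARA, the retinoic acid receptor alpha gene, rose in PC-3 on 203749_s_at by 0.88 (SE 0.17, adjusted p = 0.0293). It read -0.67 and -0.34 on the PC-3 control arrays and 0.34 with (uuaggg)4 and 0.42 with AS1411, so the classes did not overlap. Its 4 other probe sets lay between 0.09 and 0.47 without passing. The call was lost without the PC-3 array of reagent alone (adjusted p = 0.235), (uuaggg)4 (0.0967) or AS1411 (0.186) and after quantile normalization (0.0701), and with probe sets averaged per gene RARA gave 0.35 (0.116). In all, 2 of 204 listed probe sets passed in PC-3 and 3 over the 3 lines, near the array's 1.21% and 1.57%, and 0 passed for unequal effects between lines.

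**Figure D5:**
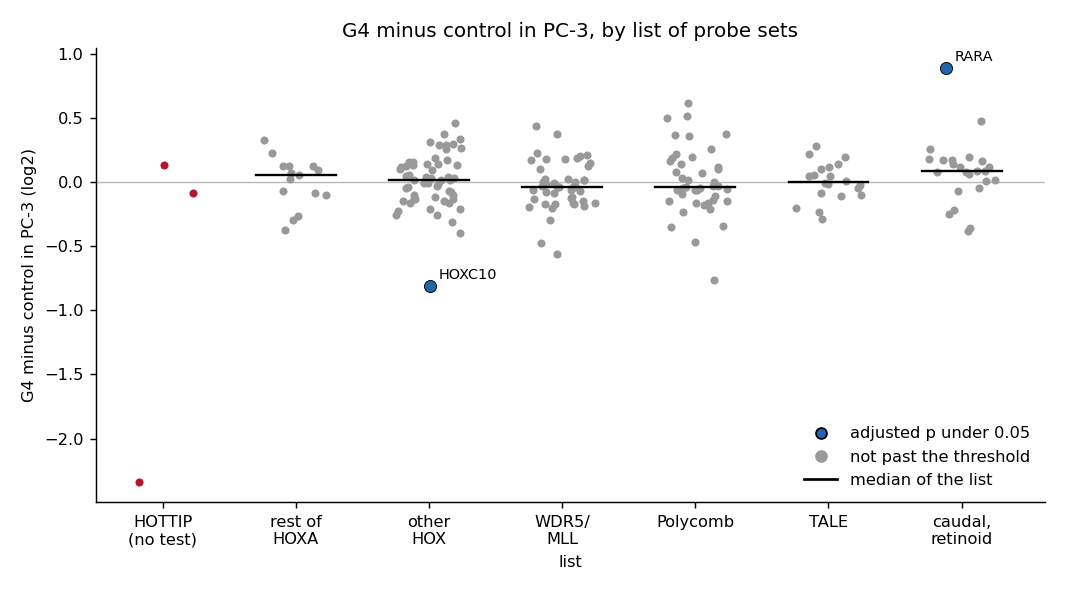
G4 minus control difference in PC-3 (log2, y axis) for every probe set of HOTTIP and of the 6 lists (x axis); blue points passed an adjusted p of 0.05 in limma, bars are list medians, and HOTTIP was not tested. HOXC10 at -0.81 and RARA at 0.88 are the called probe sets. HOTTIP 244553_at lies at -2.34, and HOTTIP was chosen on this difference.

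The genes whose pattern was most like that of 244553_at were sought with 2 correlations. Over the 12 arrays, 4 of each line, the highest Pearson r were those of XIRP2 (0.964), PPIG (0.961), ANKRD36BP2 (0.960), SHOC1 (0.956) and ATG13 (0.951), a likeness set mainly by the 2 PC-3 control arrays. XIRP2 228794_at read 0.90 and 0.87 on those arrays and 0.13 and 0.12 on the PC-3 G4 arrays. With line means subtracted, which leaves line levels out, the highest were AVL9 (0.983), NFATC2IP (0.982), APOL6 (0.971), BCL2L2 (0.970) and AP5B1 (0.967). What then remains of 244553_at is mostly its PC-3 class difference, on which HOTTIP was chosen, so these r values are a description only. APOL6 1557236_at, an apolipoprotein L family gene, had the largest PC-3 difference of these 10 at -2.27. Its PC-3 values were 1.10 and 1.11 for the controls and -0.86 and -1.46 for the G4 arrays.

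Arrays separated by line, with Pearson correlations of at least 0.856 within a line and at most -0.171 between lines, the latter lowered by the centring. Markers bore out the labels in part. Of the prostate list (5 of 8 genes named), HOXB13, a gene that the other HOX list also holds, and TMPRSS2 were higher in PC-3, while no probe set of the androgen targets KLK3 and KLK2 was and KLK3 231629_x_at was lower in PC-3 than in HBC4 (-0.59, adjusted p = 0.0108). Of the breast list (7 genes named), ESR1 (205225_at, 3.24 ± 0.65) and TRPS1 were highest in HBC4. GATA3 was lower in PC-3 than in HBC4 and also than in MKN74 (limma, adjusted p = 2.34e-13 and 1.79e-13). In HBC4, 5 of the 7 genes were higher than in PC-3 and 5 were higher than in MKN74. The gastric list (8 genes named) went against the MKN74 label. In PC-3, 4 of its genes were higher than in MKN74 and 5 were higher than in HBC4, with 1 lower in each comparison. Only CDX2 and no mucosal gene was higher in MKN74 than in PC-3, and TFF1 and TFF2 had line means of 8.15 and 8.26 in PC-3. All of the 5 epithelial genes were lower in PC-3 than in MKN74, whereas against HBC4 4 were lower and 1 was higher. All 4 mesenchymal genes were higher in PC-3 than in either line. No probe set of the 5 marker lists passed G4 against control in PC-3, and their part in the HOTTIP values was not tested.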

How the data were processed

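Total RNA (100 ng per sample) from 12 samples was labelled and hybridised to Affymetrix human arrays, per the labels' protocols. The deposited values are log2 expression; the submitters' processing notes name RMA, its version not given in the sources used here. Every probe set's median over the 12 arrays is 0 in the deposited table (to within 5e-07), so values were also centred. Log base 2 was taken from RMA. Centring removes level and detection, and the number of arrays limits precision.

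Probe sets were named from the platform annotation of 2016: 41091 of 54613 name 1 gene, 1801 several and 11721 none here. Sequences are RefSeq's (GRCh38.p14), searched in Python 3.11.15. The members and lists were chosen with earlier results of these data known. Limma 3.58.1 in R 4.3.3 (lmFit, eBayes) was fitted to all non-control probe sets. The line model held cell line and a class effect per line, with the 2 arrays of a class as replicates; the treatment model had terms for treatment and line. Each has 6 residual degrees of freedom. Same-numbered samples are the same cell line, a block by design; deviations of arrays of 1 line from treatment means correlated at 0.920 to 0.963. The threshold was a Benjamini-Hochberg adjusted p of 0.05 over all probe sets.

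Named were all member probe sets, every listed probe set past the threshold (or the 3 largest in each direction where over 6 passed, otherwise the smallest p), the 5 genes most like HOTTIP by each of 2 correlations, and WDR5, KMT2A, MEIS1 and HOTAIR. For regulator and marker lists, line differences are given only in part. Alternatives were quantile normalization, robust or trended eBayes, gene averages, control arrays only, another model, no block and leaving out arrays or lines. The scripts were tested on simulated data.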

Additional observations from a re-analysis of the deposited data

Results flagged for a closer look

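ZEB1, a repressor of epithelial genes on the mesenchymal marker list, was singled out because its G4 effect differed between the lines on 1 of 4 probe sets (212764_at, limma F test, adjusted p = 0.0314). Of the array 0.487% passed this test, and no other probe set of the 5 marker lists did. The G4 minus control difference of ZEB1 212764_at was -0.72 in MKN74, -0.15 in PC-3 and 0.18 in HBC4. In MKN74 it read 0.40 and 0.32 on the control arrays and -0.32 and -0.40 on the G4 arrays. In PC-3, where it was highest, all 4 arrays lay between 5.66 and 5.82. Whether the MKN74 level lay near background cannot be read from centred values.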

How the results depend on the processing

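Over 51 results and 688 alternatives, 570 kept direction and side of the threshold (or stayed within the replicate spread or 1.5 times the count), 74 lost their call, 1 gained one, 27 moved and 16 changed sign in a test. With 9 of untested differences there were 25 sign changes, of which 0 had a call on either side; their cause was not tested. For 1564070_s_at, HBC4 minus MKN74 was 0.0095 on control arrays alone and -0.21 to 0.00041 without 1 array, and (uuaccc)4 minus reagent alone was 0.017 after quantile normalization and -0.13 to 0.086 without 1 array or line. For 244553_at, (uuaccc)4 minus reagent alone was -0.044 with probe sets averaged and -0.52 to 0.40 without 1 array or line, and AS1411 minus (uuaggg)4 was -0.38 to 0.55. The untested class difference of 1564070_s_at ran from -0.66 to 0.49 in PC-3 without 1 array, and in MKN74 it was -0.18 for (uuaggg)4 minus (uuaccc)4 against 0.14. The PC-3 difference of HOTTIP 244553_at was -1.81 after quantile normalization and ranged from -2.46 to -2.21 without 1 array. The count of HOTTIP probe sets higher in PC-3 than in MKN74 ranged from 1 to 3 without 1 array and stayed at 3 against HBC4. The count of listed probe sets called in PC-3, 2 in the fit above, was 1 after quantile normalization (HOXC10) and 1 with probe sets averaged per gene (HOXC10), and 0 to 3 without 1 array. Over the 3 lines the count of 3 became 1 after quantile normalization (KMT2C) and 0 to 3 without 1 array or line. With probe sets averaged per gene it was 3 genes, KMT2C, PHF19 and HOXC6 (-0.31, limma adjusted p = 0.0298, against 0.0547 in the fit by probe set). With no cell line block it was 0. For unequal effects between lines the count of 0 became 1 after quantile normalization and 1 with gene averages, both HOXC10. No probe set of the rest of the HOXA cluster was called in PC-3 under any alternative run. The averaged HOTTIP row gained a call for HBC4 minus MKN74 (-0.23, adjusted p = 0.0380).

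Over all probe sets, the 659 calls in PC-3 became 387 after quantile normalization and 245 to 615 without 1 array. Those over 3 lines, 859, became 0 without the block and 80 to 654 without 1 array or line, and the 266 with unequal effects became 94 to 187. Adding probe sets that name a member and another gene was not run, since there are 0. Centred values give no signal over background, so what dimness limits cannot be given.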
